A study of Mus musculus with 8 samples.

Results

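Adrenomedullin and 8 further secreted factors with a part in the growth or tone of blood vessels were followed in cultured heart muscle cells: Adm, Vegfa, Vegfb, Vegfc, Angpt1, Angpt2, Angptl4, Edn1 and Apln. The genes were taken by name from both deposited tables, and all 9 were measured, among 11367 genes in all. They account for 12 of the 21301 transcripts listed. The naming rule has no threshold, but the list was chosen with results of the same comparison known, so the difference of each member between the media is given as a description and without a p value.

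The 8 RNA sequencing libraries come from adult ventricular cardiomyocytes of C57BL/6 mice (C57BL/6J in the study's Methods). Those Methods give males of approximately 8 to 12 weeks for the mice of the whole study. In the control group (n = 4) the cells were kept for 24 hours in M199, a defined culture medium. In the other group (n = 4) they were kept for 24 hours in CCR2+ cardiac macrophage–conditioned medium, that is, M199 in which CCR2+ macrophages had been cultured for 24 hours. Those macrophages were sorted from the hearts of Ccr2gfp/+ mice 4 weeks after transverse aortic constriction (TAC), which narrows the aorta and puts the left ventricle under pressure overload, and they were not themselves added to the myocytes. Both media held (–)-Blebbistatin, which stops contraction, with ITS (insulin-transferrin-selenium) and CD lipid. The study's Methods name serum where the macrophages were cultured and do not name it for control M199, so serum and macrophage products cannot be told apart. The sources used here do not say whether the replicates came from separate hearts or separate batches of conditioned medium. The spread between replicates may therefore be technical in part.

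Vessel growth is governed by a small number of secreted proteins that one cell type releases and another senses. Vascular endothelial growth factors act on receptor tyrosine kinases of endothelial cells, and angiopoietins act on the endothelial receptor Tie2. Adrenomedullin, endothelin-1 and apelin are peptide hormones cut from larger precursors, the first a vasodilator, the second a strong vasoconstrictor and the third a ligand of a receptor on endothelial and heart muscle cells. Cardiomyocytes are a main source of VEGF-A and VEGF-B in the heart, whereas endothelin-1, apelin and angiopoietin-2 are best known as products of endothelial cells. Several of these genes, Vegfa, Adm, Angptl4 and Edn1 among them, are induced by low oxygen through hypoxia-inducible factors.

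Vegfa and Vegfb were the members listed with more than 1 transcript. The coding sequence that separates their transcripts towards the 3′ end is shown. It decides how tightly the secreted protein binds heparan sulfate at the cell surface. The sequences were read from GRCm38 with GENCODE M21 models, on the minus strand of chromosomes 17 and 19. Each runs 5′ to 3′ from a shared coding exon to the last base before the stop codon of that transcript, and capitals mark bases missing from the coding sequence of Vegfa-201 or of Vegfb-202.
Vegfa-201: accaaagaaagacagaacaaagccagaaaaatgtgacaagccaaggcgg
Vegfa-202: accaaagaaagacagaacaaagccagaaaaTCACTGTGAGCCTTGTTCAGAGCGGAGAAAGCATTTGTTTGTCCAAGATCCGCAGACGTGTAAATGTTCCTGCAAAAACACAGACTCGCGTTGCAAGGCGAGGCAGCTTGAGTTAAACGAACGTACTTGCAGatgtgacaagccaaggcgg
Vegfa-207: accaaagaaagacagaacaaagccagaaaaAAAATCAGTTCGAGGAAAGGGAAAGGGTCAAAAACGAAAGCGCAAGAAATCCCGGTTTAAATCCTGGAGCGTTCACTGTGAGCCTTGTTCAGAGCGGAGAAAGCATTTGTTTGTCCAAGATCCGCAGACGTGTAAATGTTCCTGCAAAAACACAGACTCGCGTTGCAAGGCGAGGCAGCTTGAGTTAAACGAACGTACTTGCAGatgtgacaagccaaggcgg
Vegfb-201: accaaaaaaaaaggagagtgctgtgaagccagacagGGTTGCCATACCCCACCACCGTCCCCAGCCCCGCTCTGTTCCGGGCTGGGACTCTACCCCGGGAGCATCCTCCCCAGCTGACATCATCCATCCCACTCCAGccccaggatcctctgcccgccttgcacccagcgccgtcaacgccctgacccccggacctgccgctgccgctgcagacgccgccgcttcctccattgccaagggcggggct
Vegfb-202: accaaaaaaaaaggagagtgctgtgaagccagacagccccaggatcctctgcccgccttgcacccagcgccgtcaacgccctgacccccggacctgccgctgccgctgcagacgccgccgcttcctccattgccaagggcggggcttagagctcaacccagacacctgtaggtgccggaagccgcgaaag

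Vegfa-201, with 146 codons, skips both segments and encodes the short, freely diffusing form of VEGF-A. Its first coding segment, not shown, is shorter too, with 66 bases against 600 in Vegfa-202 and Vegfa-207. Vegfa-202 holds a coding exon of 132 bases (chr17:46020991-46021122) that carries the heparin-binding part of the intermediate form. Vegfa-207 holds in addition an exon of 72 bases (chr17:46022277-46022348), which is rich in basic codons and belongs to the form retained at the cell surface. In Vegfb-201 an insert of 101 bases shifts the reading frame and gives the freely secreted form of VEGF-B, whereas Vegfb-202 encodes the heparin-binding form.

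The values are FPKM, fragment counts scaled to transcript length and to the mapped fragments of each library, and fold changes were fitted with limma on log2(FPKM + 1), conditioned over control. Cardiomyocyte markers were abundant in every library, with summed levels of 9080 to 13880 FPKM in control and 5089 to 11720 FPKM in conditioned medium, so the labelled cell type was present throughout. Markers of other heart cells were present too. The 16 endothelial markers summed to 136 to 318 FPKM in control and 312 to 569 FPKM in conditioned medium, and none of the 16 was at 0 in any library. Conditioned-medium replicate 4 stood apart. Mitochondrially encoded genes took 63.0% of its summed FPKM against 30.2 to 40.7% in the other 7 libraries, and it had the lowest cardiomyocyte and the highest endothelial sum of all 8. The difference of each member below is therefore also given without that library, and so is that of any other gene for which leaving it out turned the sign or moved the value by over 1.5 times. In such bulk samples, fewer cells of a type and less RNA per cell cannot be told apart.

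Adrenomedullin, the vasodilator peptide, stood at higher levels in all 4 conditioned-medium libraries than in any control library. Adm (ENSMUSG00000030790.15, chr7:110627661-110629820) measured 17.0, 12.6, 12.7 and 18.4 FPKM in control replicates 1 to 4. In conditioned-medium replicates 1 to 4 it measured 24.9, 24.8, 22.7 and 42.1 FPKM. The groups did not overlap, replicate 4 was the highest library, and the other conditioned-medium libraries lay between 22.7 and 24.9 FPKM. The means were 15.2 ± 2.97 FPKM (SD, n = 4) for control and 28.6 ± 9.02 FPKM (SD, n = 4) for conditioned medium, with a ratio of 1.89. The fitted log2 fold change was 0.85 (SE 0.22), and 0.65 (SE 0.15) without conditioned-medium replicate 4.

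Angptl4, a secreted inhibitor of lipoprotein lipase that also acts on vessel permeability, had the largest fold change of the 9 members. Angptl4 (ENSMUSG00000002289.15, chr17:33773750-33781575) measured 3.39, 2.03, 2.18 and 2.48 FPKM in control replicates 1 to 4. The conditioned-medium replicates measured 6.15, 5.05, 3.93 and 9.84 FPKM. These groups did not overlap either, although the lowest conditioned-medium value was only 0.54 FPKM above the highest control value. The means were 2.52 ± 0.610 FPKM (SD, n = 4) for control and 6.24 ± 2.57 FPKM (SD, n = 4) for conditioned medium, with a ratio of 2.48. The fitted log2 fold change was 0.99 (SE 0.24), and 0.78 (SE 0.18) without conditioned-medium replicate 4. Adm and Angptl4 differed in level, with Adm the more abundant in every library.

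**Figure D1:**
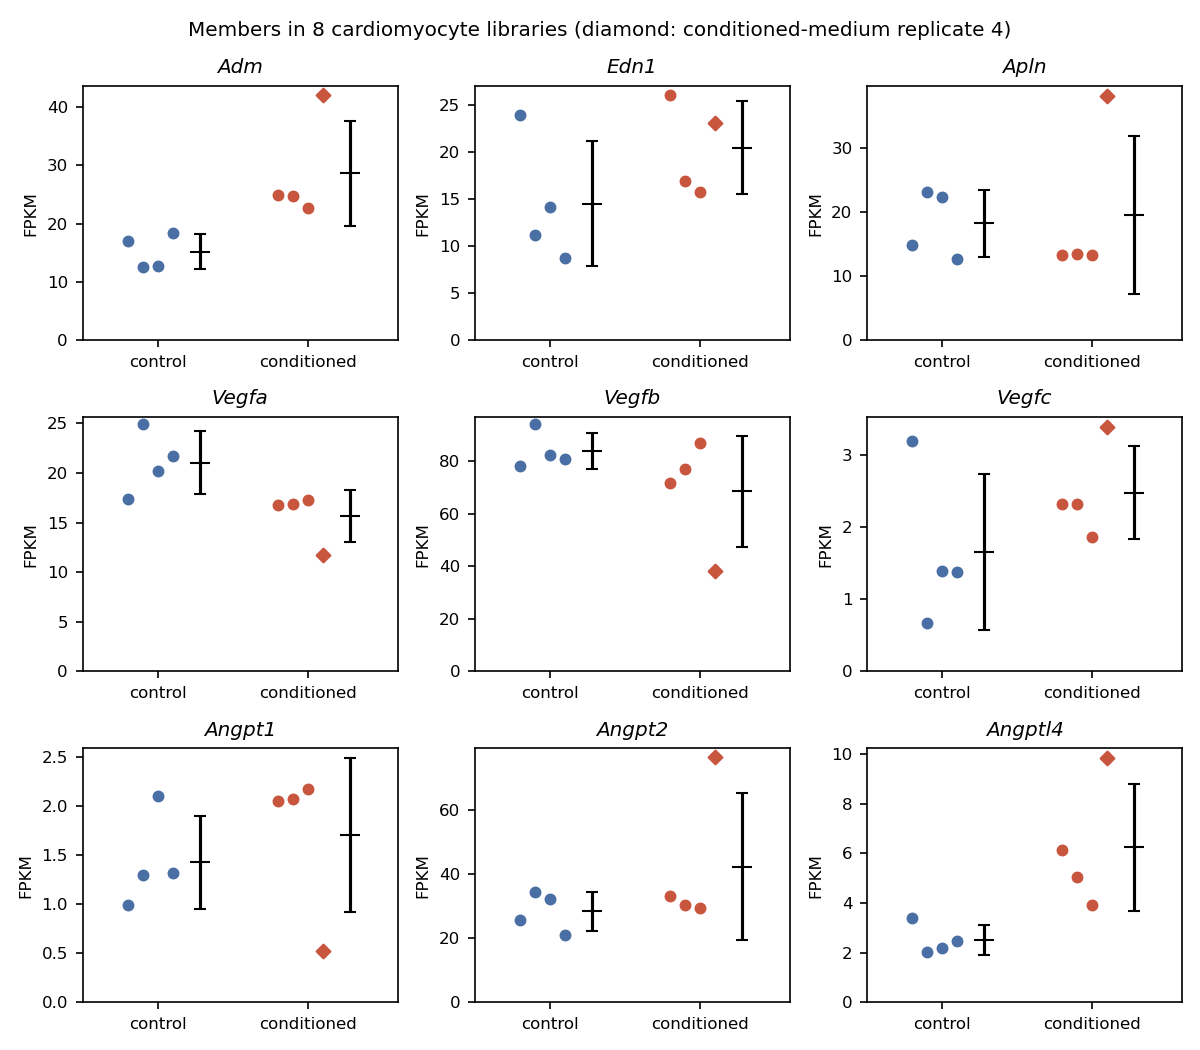
FPKM of the 9 members in each library, with control libraries in blue and conditioned-medium libraries in red, points from left to right being replicates 1 to 4 and the diamond conditioned-medium replicate 4. Black bars are the mean and SD of 4 libraries, and each axis starts at 0. Adm and Angptl4 lie higher without overlap in conditioned medium, Vegfa lies lower without overlap, and the other 6 members overlap.

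Vegfa, the main mitogen of endothelial cells, lay in the opposite direction. The gene-level values of Vegfa (ENSMUSG00000023951.17, chr17:46016993-46032369) were 17.38, 24.99, 20.20 and 21.67 FPKM in control replicates 1 to 4. In conditioned medium they were 16.77, 16.91, 17.31 and 11.75 FPKM. All 4 conditioned-medium libraries were below all 4 control libraries, but the nearest values of the groups differed by only 0.066 FPKM (17.38 in control replicate 1 and 17.31 in conditioned-medium replicate 3). The means were 21.1 ± 3.17 FPKM (SD, n = 4) and 15.7 ± 2.63 FPKM (SD, n = 4). The fitted log2 fold change was -0.41 (SE 0.19), and -0.28 (SE 0.13) without conditioned-medium replicate 4, the lowest library.

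The short Vegfa-201 transcript was the most abundant of the 3 in every library. It measured 18.53, 21.73, 20.02 and 20.94 FPKM in control and 14.73, 17.60, 15.31 and 11.19 FPKM in conditioned medium, again without overlap, with a log2 fold change of -0.45 (SE 0.18), or -0.34 without conditioned-medium replicate 4. Vegfa-202 measured 3.39, 9.25, 4.57 and 4.69 FPKM in control and 6.26, 4.28, 5.92 and 3.80 FPKM in conditioned medium, and these ranges overlapped. Vegfa-207, the transcript with both heparin-binding segments, measured 2.88, 4.07, 3.92 and 5.90 FPKM in control and 1.97, 2.13, 3.02 and 1.13 FPKM in conditioned medium. Its groups overlapped in a single library, conditioned-medium replicate 3, and its log2 fold change was -0.77 (SE 0.26), or -0.60 without conditioned-medium replicate 4. As a share of the 3 listed transcripts, Vegfa-201 took 68.3% ± 5.42 (SD, n = 4) in control and 67.5% ± 4.77 (SD, n = 4) in conditioned medium. Vegfa-207 took 11.6 to 18.7% in control and 6.98 to 12.5% in conditioned medium, and Vegfa-202 took 13.7 to 26.4% and 17.8 to 27.3%. The shares of all 3 transcripts overlapped between the media. Transcript FPKM were estimated by the authors' software from reads that the 3 models largely share, so a division among them is less certain than the gene total.

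**Figure D2:**
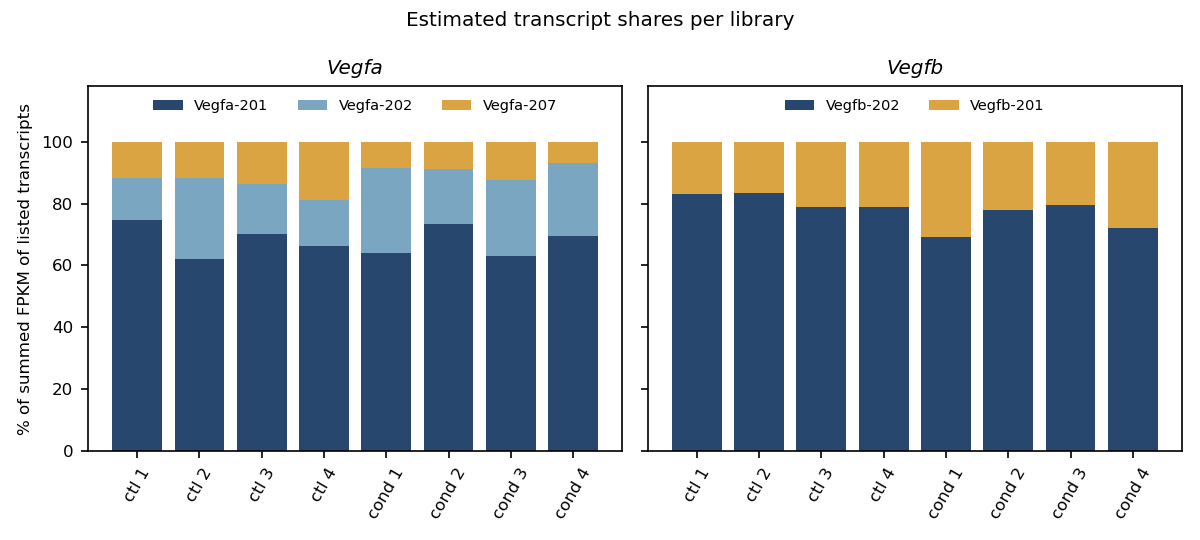
Share of each listed transcript in the summed transcript FPKM of Vegfa (left) and Vegfb (right), one bar per library and each bar adding to 100%. The segment of Vegfa-201 is the largest in all 8 libraries, and that of Vegfb-201 is widest in conditioned-medium replicates 1 and 4 at 30.8% and 27.8%.

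Vegfb, a ligand of VEGFR1 found chiefly in heart and muscle, was the most abundant member in 7 of 8 libraries. Vegfb (ENSMUSG00000024962.13, chr19:6982473-6987651) measured 78.4, 94.1, 82.4 and 80.9 FPKM in control and 71.9, 77.2, 87.0 and 38.2 FPKM in conditioned medium. The groups overlapped, and conditioned-medium replicate 4 stood far below the rest. The log2 fold change of -0.35 (SE 0.24) became -0.09 (SE 0.10) without that library. The heparin-binding form Vegfb-202 measured 86.4 to 107 FPKM in control and 36.7 to 93.8 FPKM in conditioned medium, and the freely secreted form Vegfb-201 measured 17.9 to 23.7 FPKM and 14.1 to 29.7 FPKM. Vegfb-201 made up 16.5 to 21.3% of both transcripts in control and 20.5 to 30.8% in conditioned medium, ranges that met between control replicates 3 and 4 and conditioned-medium replicate 3. Vegfb exceeded Vegfa 3.73- to 4.51-fold in control and 3.25- to 5.03-fold in conditioned medium.

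Vegfc, the growth factor of lymphatic vessels, was low and uneven. Vegfc (ENSMUSG00000031520.6, chr8:54077606-54187096) measured 3.19, 0.670, 1.39 and 1.37 FPKM in control and 2.33, 2.32, 1.87 and 3.39 FPKM in conditioned medium. Control replicate 1 lay among the conditioned-medium values and the other control libraries lay below them all. The log2 fold change was 0.45 (SE 0.25), and 0.33 without conditioned-medium replicate 4. It was 0.12 without control replicates 2 and 4, an alternative chosen after seeing the data that removes the libraries with the lowest endothelial sums. Under that alternative Adm was at 0.87 (0.85 with all libraries), Angptl4 at 0.89 (0.99) and Angpt2 at 0.42 (0.47). Vegfa was at -0.26 (-0.41), Vegfb at -0.29 (-0.35) and Angpt1 at 0.063 (0.12), and Apln stayed negative.

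The angiopoietins form an opposed pair, Angpt1 stabilising vessels through Tie2 and Angpt2 loosening them. Angpt1 (ENSMUSG00000022309.9, chr15:42424723-42676977) was low, with 0.990, 1.30, 2.10 and 1.32 FPKM in control and 2.05, 2.07, 2.18 and 0.525 FPKM in conditioned medium. Angpt2 (ENSMUSG00000031465.6, chr8:18690263-18741562) measured 25.8, 34.5, 32.3 and 20.9 FPKM in control and 33.1, 30.4, 29.5 and 76.5 FPKM in conditioned medium. Both pairs of groups overlapped, and conditioned-medium replicate 4 held the lowest Angpt1 and the highest Angpt2 of all 8 libraries. The log2 fold change of Angpt1 was 0.12 (SE 0.24) with that library and 0.37 (SE 0.16) without it, and that of Angpt2 was 0.47 (SE 0.30) with it and 0.15 (SE 0.16) without it. The ratio of Angpt2 to Angpt1 was between 15.4 and 26.6 in control, between 13.5 and 16.2 in 3 conditioned-medium libraries, and 146 in the remaining one, replicate 4.

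Edn1 (ENSMUSG00000021367.8, chr13:42301476-42307990), the endothelin-1 precursor, measured 24.0, 11.2, 14.2 and 8.79 FPKM in control and 26.1, 16.9, 15.7 and 23.1 FPKM in conditioned medium. The groups overlapped through control replicate 1. The log2 fold change was 0.53 (SE 0.28), with 0.46 without conditioned-medium replicate 4, 0.79 without control replicate 1 and 0.11 without control replicates 2 and 4. Leaving out control replicate 2, 3 or 4 alone gave 0.44, 0.55 and 0.34. With 1 library left out, Edn1 thus moved more for control replicates 1, 2 and 4 than for the replicate that stood apart, and less for control replicate 3.

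Apln (ENSMUSG00000037010.7, chrX:48025146-48034853), the apelin precursor, measured 14.9, 23.1, 22.4 and 12.7 FPKM in control. In conditioned medium it measured 13.3, 13.5, 13.3 and 38.1 FPKM, so 3 libraries agreed closely and replicate 4 was 2.87 times the lowest. The log2 fold change was -0.02 (SE 0.33), and -0.38 (SE 0.20) without replicate 4. Of the 9 members it was the one whose direction was least settled, keeping its sign in 9 of 16 alternative settings.

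**Figure D3:**
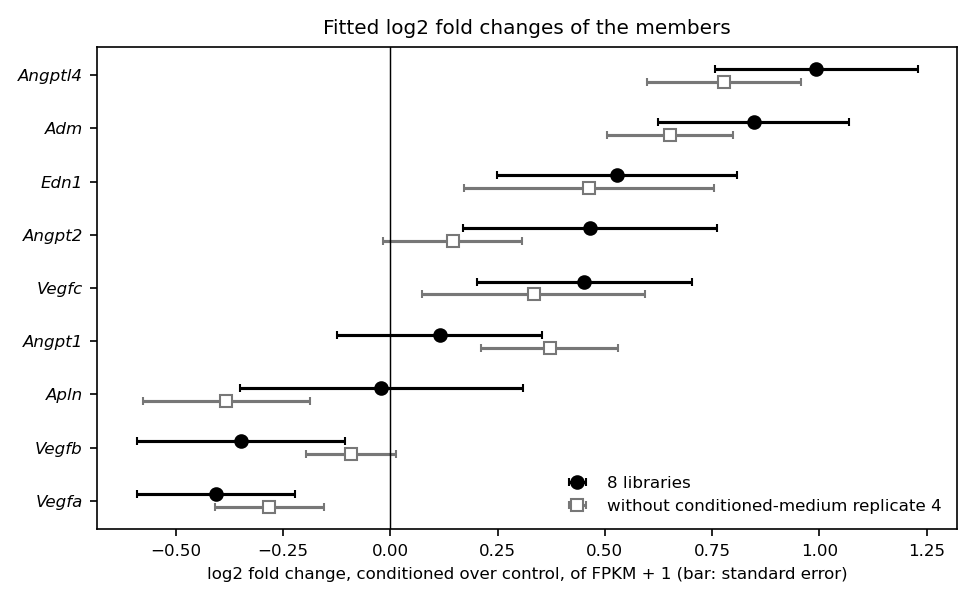
Fitted log2 fold change of each member, conditioned over control medium on the log2(FPKM + 1) scale, with bars of 1 standard error. Filled circles use all 8 libraries and open squares leave out conditioned-medium replicate 4, which moves Angptl4 from 0.99 to 0.78, Adm from 0.85 to 0.65 and Apln from -0.02 to -0.38.

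Counted together, 6 members had a positive and 3 a negative log2 fold change, with a median of 0.45 beside 0.02 over all 11367 genes. Of the 9 members, 2 were higher without overlap and 1 lower without overlap, where 5.08% of all genes were higher and 1.46% lower in that way. At an adjusted p under 0.05 from limma, with the Benjamini-Hochberg method over all genes, 0.554% of genes were higher (63 genes) and 0.0% lower, and no member was in either set. At an unadjusted p under 0.05, 2 members were higher and 1 lower, against 8.78% and 0.845% of all genes. With array weights, which give less weight to libraries that depart from their group, 7.76% of all genes were higher and 0.449% lower at the same adjusted threshold, among them Angptl4 and Adm as higher and Apln as lower. Among all transcripts, 0.061% of transcripts were higher and 0.00469% lower at the adjusted threshold, and none of the 12 member transcripts was. Unadjusted, 2 of the 12 were higher and 2 lower. The unadjusted share over all transcripts was not taken, so these 2 counts have no background beside them. Since the members were selected on this contrast, these counts describe them and support nothing further.

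The members were not chosen by the order of their levels, but that order and the pairs tested come from means over all 8 libraries, both media included. FPKM are scaled to transcript length. Over the 8 libraries Vegfb was highest, followed by Angpt2, Adm, Apln, Vegfa, Edn1, Angptl4, Vegfc and Angpt1, with means running from 76.3 FPKM to 1.57 FPKM. Each neighbouring pair was compared with a two-sided exact sign-flip permutation test of the log2 difference over 8 libraries, adjusted over 8 pairs. Vegfb exceeded Angpt2 by 1.15 ± 0.89 log2 units (SD; higher in 7 of 8 libraries, exact adjusted p = 0.0313). Angpt2 exceeded Adm by 0.66 ± 0.46 (8 of 8 libraries, exact adjusted p = 0.0208), Edn1 exceeded Angptl4 by 1.83 ± 0.44 (8 of 8, exact adjusted p = 0.0208) and Angptl4 exceeded Vegfc by 0.74 ± 0.39 (8 of 8, exact adjusted p = 0.0208). The neighbours Adm and Apln, Apln and Vegfa, Vegfa and Edn1, and Vegfc and Angpt1 did not differ beyond their spread (exact adjusted p = 0.563, 0.945, 0.75 and 0.563). Apln stood above Vegfa by its mean, yet was higher than Vegfa in only 2 of 8 libraries. Without conditioned-medium replicate 4, Vegfa stood above Adm, and Apln below Edn1. The smallest unadjusted p that 8 libraries allow is 0.00781. The call of Vegfb over Angpt2 was lost (exact adjusted p = 0.0625) when any library but conditioned-medium replicate 4 was left out. Vegfb was then higher in 6 of 7 libraries, with mean differences of 1.04 to 1.15 log2 units. The loss therefore goes with having 7 libraries and not with any 1 of them. By control mean, Vegfb lay above 96.0% of all genes, while Angptl4, Vegfc and Angpt1 lay above 33.7%, 24.0% and 21.0%.

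Since the summed endothelial markers were lowest in 3 of the control libraries, the members were also set against them. The 16 markers all had positive log2 fold changes with a median of 0.70, and 0 of 16 passed the adjusted threshold, with 12 higher unadjusted. Eng, an endothelial co-receptor for TGF-beta ligands, had a log2 fold change of 0.84 (SE 0.28, adjusted p = 0.366 from limma). Cldn5, of endothelial tight junctions, had 0.66 (SE 0.21, adjusted p = 0.344 from limma), and Ecscr, an endothelial surface protein, had 0.84 (SE 0.26, adjusted p = 0.311 from limma). The summed endothelial level was 318, 203, 275 and 136 FPKM in control and 375, 312, 318 and 569 FPKM in conditioned medium. Control replicate 1 lay at the level of conditioned-medium replicates 2 and 3, and control replicate 4 had the lowest sum.

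Of the 9 members, Edn1 kept the narrowest ratio to that sum across the libraries. Per 100 FPKM of endothelial markers it measured 5.16 to 7.56 FPKM in control and 4.07 to 6.97 FPKM in conditioned medium, so the ranges overlapped. Adm per 100 FPKM of endothelial markers was 5.36, 6.19, 4.63 and 13.5 in control and 6.64, 7.94, 7.12 and 7.40 in conditioned medium, higher in all 4 than in 3 of the 4 control libraries and below control replicate 4. Angptl4 per 100 FPKM of endothelial markers was 1.07, 0.999, 0.794 and 1.82 in control and 1.64, 1.62, 1.23 and 1.73 in conditioned medium, with the same single control library above. Without reference to a cell type, Adm and Angptl4 did not overlap between the media, and against the endothelial sum they did. The part of endothelial RNA in these differences was not tested.

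**Figure D4:**
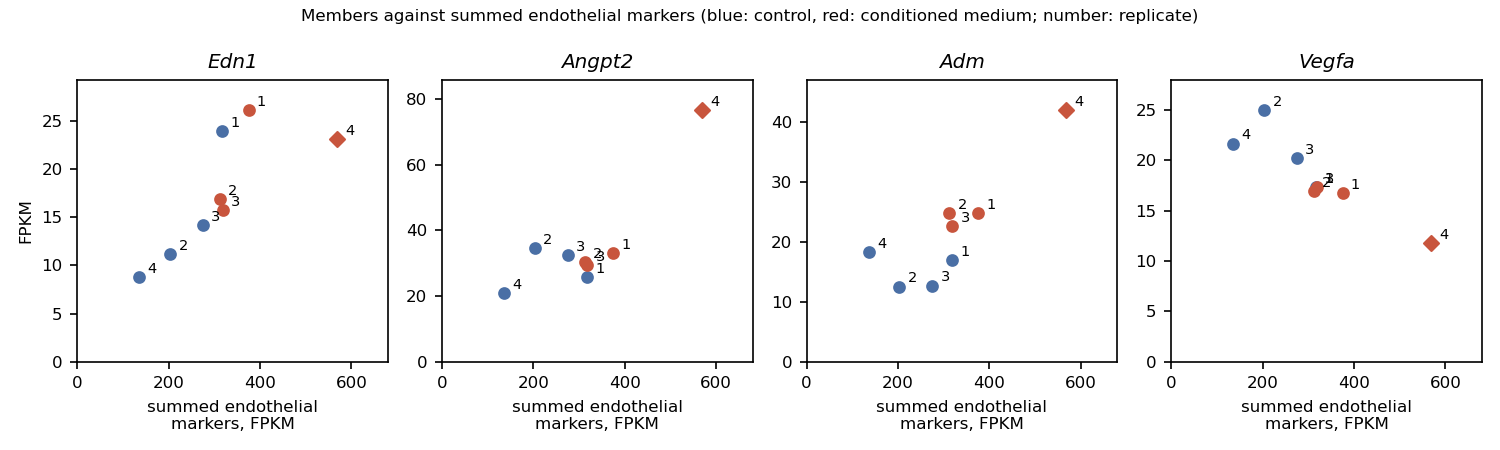
FPKM of Edn1, Angpt2, Adm and Vegfa against the summed FPKM of 16 endothelial markers in each library, control in blue and conditioned medium in red, with replicate numbers beside the points. Edn1 climbs with the endothelial sum through control replicates 4, 2, 3 and 1. In conditioned medium Edn1 does not keep to that order, with 23.1 FPKM in replicate 4, at the highest sum, and 26.1 FPKM in replicate 1. The conditioned-medium values of Adm lie above those of all control libraries. Only 1 control library, replicate 1, has a sum within the conditioned-medium range, and the part of endothelial RNA was not tested. Conditioned-medium replicate 4 is at the far right of each panel.

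Set against the cardiomyocyte sum, Vegfa and Vegfb overlapped between the media. Vegfb per 10000 FPKM of cardiomyocyte markers was 58.3 to 86.3 in control and 70.5 to 75.1 in conditioned medium, replicate 4 included at 75.0. Vegfa was 15.6 to 19.1 in control and 14.8 to 23.1 in conditioned medium, and the separation seen in FPKM was absent on this scale. The 13 cardiomyocyte markers all had negative log2 fold changes with a median of -0.42, and -0.10 without conditioned-medium replicate 4, and 0 of 13 passed the test. Among them were Mb, the oxygen-binding myoglobin, at -0.23 (SE 0.25, adjusted p = 0.803 from limma), Actc1, cardiac actin, at -0.75 (SE 0.36, adjusted p = 0.546 from limma) and the calcium-handling genes Casq2 at -0.54 and Pln at -0.54. Without conditioned-medium replicate 4 the values of Mb, Actc1, Casq2 and Pln were -0.010, -0.43, -0.30 and -0.21. Adm per 10000 FPKM of cardiomyocyte markers was 9.38 to 18.8 in control and 19.3 to 82.6 in conditioned medium, so that member did not overlap on this scale, by a narrow margin (18.76 and 19.33). Angptl4 did overlap, with 1.52 to 3.74 in control and 3.35 to 19.3 in conditioned medium. The part of cardiomyocyte RNA in the Vegfa and Vegfb values was not tested.

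Markers of the other cell types were read in the same way. Of 11 fibroblast markers 1 passed the adjusted threshold: Dcn, a collagen-binding proteoglycan, rose from 4.83 ± 1.79 FPKM (SD, n = 4) to 12.2 ± 1.43 FPKM (SD, n = 4), by 1.22 log2 units (SE 0.23, adjusted p = 0.0336 from limma), and this call was lost in 14 of 17 alternatives (adjusted p from 0.000721 to 0.474). The matrix gene Lum stood 1.11 log2 units higher (adjusted p = 0.0921 from limma), the receptor Pdgfra 1.18 (adjusted p = 0.1 from limma) and the actin-severing protein Gsn 0.50 (adjusted p = 0.567 from limma). All 11 fibroblast markers had positive log2 fold changes, with a median of 0.42. Named after their values were seen, the collagen genes Col1a1, Col1a2 and Col3a1 were at 0.07, 0.08 and 0.35. Without conditioned-medium replicate 4 they were at 0.44, 0.38 and 0.59. The fibroblast sum was 21.4 to 65.3 FPKM in control and 59.2 to 68.5 FPKM in conditioned medium. The 9 measured macrophage markers summed to 26.8 to 174 FPKM in control and 154 to 164 FPKM in conditioned medium, with Lyz2 the most abundant (1.06 log2 units higher, adjusted p = 0.546 from limma). The complement genes C1qa, C1qb and C1qc stood 1.19, 0.90 and 0.85 log2 units higher (limma, adjusted p = 0.373, 0.35 and 0.542), and Ccr2, Cx3cr1, Ptprc, Cd163 and Fcgr1 were not among the genes listed.

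The mural sum, from smooth muscle and pericyte markers, was 126 to 199 FPKM in control and 98.1 to 164 FPKM in conditioned medium. Its most abundant gene Acta2 stood at -0.61 log2 units, or -0.34 when conditioned-medium replicate 4 was left out, and the smooth muscle myosin Myh11 0.89, with the pericyte genes Rgs5 at 0.84 and Kcnj8 at 0.48. None of those 4 passed the adjusted threshold. The mesothelial and lymphatic sum was 11.6 to 18.5 FPKM in control and 29.7 to 104 FPKM in conditioned medium. Its most abundant gene was Pdpn, a membrane glycoprotein of lymphatic and mesothelial cells, with a log2 fold change of 1.54 (SE 0.38, adjusted p = 0.157 from limma). Pdpn alone measured 8.08 to 14.3 FPKM in control and 25.5 to 96.0 FPKM in conditioned medium, so it made up most of that sum. Msln was at 0.72 and Krt19 at 0.43, while Prox1, named after its values were seen, was at -0.03. Without conditioned-medium replicate 4 Pdpn, Msln, Krt19 and Prox1 were at 1.09, 0.41, 0.18 and 0.12. The part of these cells in the members' values was not tested.

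The receptors and regulators of the members were read from 9 lists with 124 measured genes. None of the 124 passed the adjusted threshold of limma in either direction, with 24 higher and 4 lower unadjusted, a smallest adjusted p of 0.293 and a median log2 fold change of 0.03, beside 8.78% higher and 0.845% lower unadjusted over all genes. Array weights called 14 higher and 3 lower, beside 7.76% and 0.449% of all genes.

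Of 10 measured genes for adrenomedullin and apelin receptors, processing and turnover, 6 had a positive log2 fold change. Calcrl, the receptor that adrenomedullin shares with CGRP, averaged 4.58 ± 1.44 FPKM (SD, n = 4) in control against 8.46 ± 3.32 FPKM (SD, n = 4) with conditioned medium, or a fitted difference of 0.74 log2 units (SE 0.25, adjusted p = 0.379 from limma). Ramp3, which turns Calcrl into an adrenomedullin receptor, had 0.60 (SE 0.18, adjusted p = 0.293 from limma), and Gpr182, a receptor of endothelial cells once taken for an adrenomedullin receptor, had 0.55 (SE 0.19, adjusted p = 0.383 from limma). Pam, the enzyme that amidates the peptide, was the most abundant of the list, with 34.0 ± 4.19 FPKM in control and 28.9 ± 11.1 FPKM in conditioned medium and a log2 fold change of -0.32, or 0.022 without conditioned-medium replicate 4. Named after their values were seen, Ramp2, the other adrenomedullin partner of Calcrl, ranged from 1.79 to 5.46 FPKM and the apelin receptor Aplnr from 0.182 to 0.776 FPKM, both with overlapping groups.

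All 11 VEGF and angiopoietin receptors and co-receptors had positive log2 fold changes, with a median of 0.67, and 7 were higher unadjusted. Kdr, the main signalling receptor of VEGF-A, was the most abundant at 16.8 ± 6.96 FPKM in control and 24.8 ± 3.59 FPKM in conditioned medium (SD, n = 4 each), and its log2 fold change was 0.63 (SE 0.29, adjusted p = 0.532 from limma). Tek, which encodes Tie2, had 0.75 (SE 0.22, adjusted p = 0.297 from limma), Flt1, which encodes VEGFR1, had 0.71 (SE 0.23, adjusted p = 0.357 from limma) and the co-receptor Nrp2 had 0.67 (SE 0.22, adjusted p = 0.357 from limma). Several of these receptors are themselves endothelial genes. Their list median of 0.67 stands beside 0.70 for the endothelial markers, a list that shares Kdr and Tie1 with them. All 3 measured genes of the endothelin system were positive too. Ece1, the converting enzyme that cuts endothelin-1 from its precursor, had a log2 fold change of 0.96 (SE 0.31, adjusted p = 0.349 from limma), Ednrb 1.11 (SE 0.47, adjusted p = 0.48 from limma; 0.68 without conditioned-medium replicate 4, at 30.7 FPKM its highest library) and Ednra, the receptor that drives contraction of smooth muscle, 0.30.

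The lipoprotein lipase system around Angptl4 was mixed, with 3 of 9 measured genes positive. Lpl, the enzyme that Angptl4 inhibits, measured 220 ± 33.0 FPKM in control and 166 ± 51.8 FPKM in conditioned medium (SD, n = 4 each), and its log2 fold change was -0.46 (SE 0.26, adjusted p = 0.617 from limma), or -0.19 without conditioned-medium replicate 4. Vldlr, a lipoprotein receptor, had -0.93 (SE 0.36, adjusted p = 0.453 from limma), or -0.47 without that library, Pnpla2, the triglyceride lipase of the fat droplet, -0.50 (SE 0.17, adjusted p = 0.37 from limma) and Gpihbp1, which anchors lipoprotein lipase in capillaries, 0.57 (SE 0.25, adjusted p = 0.508 from limma). Of 19 measured PPAR targets other than Angptl4, 15 were negative, with a median of -0.32, or -0.08 without conditioned-medium replicate 4. Pdk4, which restrains glucose oxidation, had -0.36 (adjusted p = 0.517 from limma). Fabp3, a fatty acid carrier, had -0.44 (-0.25 without conditioned-medium replicate 4) and Slc25a20, the carnitine carrier, -0.43 (-0.18 without it). Cpt1a, a form of the enzyme for fatty acid entry into mitochondria, had 0.56. Its other listed form Cpt1b, named after its values were seen, averaged 57.4 FPKM in control against 4.06 FPKM for Cpt1a. Cpt1b had -0.44, or -0.11 without that library. Angptl4 was at 0.99, with the sign opposite to most of that list. The cardiomyocyte markers had a median of -0.42, or -0.10 without that library. Control of Angptl4 by PPAR was not tested.

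The oxygen-sensing genes and the other targets of hypoxia-inducible factors had medians near 0, whose sign turned with conditioned-medium replicate 4. The median log2 fold change of the oxygen-sensing list was -0.12 with that library and 0.10 without it, and that of the HIF targets was -0.05 with it and 0.05 without it. Of 9 measured oxygen-sensing genes 3 were positive, with Egln1, a prolyl hydroxylase that marks HIF-alpha for destruction, at -0.45 (-0.17 without that library), Cited2, which competes with HIF for its coactivator, at -0.30 (-0.10 without it), and Epas1, which encodes HIF-2alpha, at 0.30. Of 32 measured HIF targets outside the members, 13 were positive, and at an unadjusted p under 0.05 there was 1 higher and 1 lower. Ndrg1 had a log2 fold change of 0.58 (SE 0.22, adjusted p = 0.446 from limma), Stc2 -0.45 (SE 0.16, adjusted p = 0.421 from limma), hexokinase Hk2 -0.73 (SE 0.37, adjusted p = 0.57 from limma; -0.26 without conditioned-medium replicate 4) and heme oxygenase Hmox1, the most abundant at 854 ± 93.0 FPKM in control and 992 ± 160.0 FPKM in conditioned medium, 0.21 (0.10 without it).

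Other secreted angiogenic factors gave 14 positive log2 fold changes among 22 genes. Igf2, a fetal growth factor, had 0.97 (SE 0.36, adjusted p = 0.425 from limma), Egfl7, an endothelial matrix protein, 0.78 (SE 0.29, adjusted p = 0.426 from limma) and Esm1, a proteoglycan of endothelial tip cells, 0.65 (SE 0.24, adjusted p = 0.427 from limma). Gdf15, a stress-induced cytokine and the most abundant of the list, measured 211 ± 53.4 FPKM in control and 218 ± 67.8 FPKM in conditioned medium and had 0.01, or 0.28 without conditioned-medium replicate 4. Secreted inhibitors of angiogenesis gave 7 positive among 9, including Col18a1, the source of endostatin, at 0.92 (SE 0.32, adjusted p = 0.406 from limma), Timp3 at 0.48, Vash1 at 0.43 and thrombospondin Thbs1 at 0.74 (SE 0.50).

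**Figure D5:**
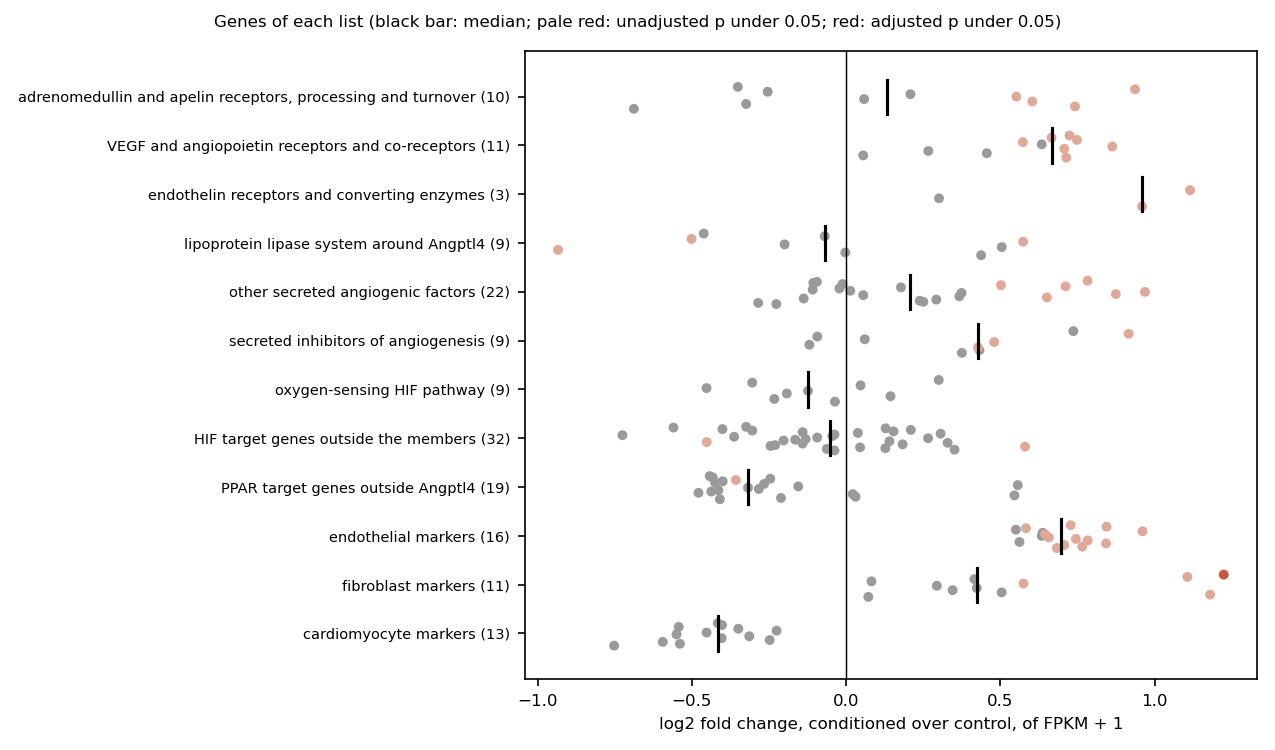
Log2 fold change, conditioned over control medium, of each gene in the 9 receptor, pathway and regulator lists and in 3 marker lists, with the number measured in brackets and the median as a black bar. Medians are 0.67 for the VEGF and angiopoietin receptors and 0.70 for the endothelial markers, lists that share Kdr and Tie1. The 3 measured endothelin genes have a median of 0.96, the PPAR targets -0.32 and the cardiomyocyte markers -0.42. Dcn is the only gene shown past the adjusted threshold.

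The genes most like 3 of the members were found by Pearson correlation of log2(FPKM + 1) over the 8 libraries, as a description in which all points share the medium groups and conditioned-medium replicate 4. Adm was most like Sfrp2 (r = 0.979), Prl2c3 (r = 0.967), Slc2a10 (r = 0.962), Angptl4 (r = 0.961) and Mmp3 (r = 0.961). A second member was thus among the 5, and both were chosen with results of this comparison known. Sfrp2, Prl2c3 and Slc2a10 were low, at no more than 1.45, 1.41 and 1.15 FPKM. Mmp3 measured 94.2 FPKM in conditioned-medium replicate 4 and at most 14.6 FPKM elsewhere. Vegfa was most like Pnrc1 (r = 0.974), Fam13b (r = 0.973), Retreg1 (r = 0.971), Kcnq1 (r = 0.971) and Nr4a1 (r = 0.965). Edn1 was most like Rgs4 (r = 0.995), Nsdhl (r = 0.992), Lxn (r = 0.978), Sncg (r = 0.977) and Rhoj (r = 0.974). Rgs4 was low, at no more than 1.92 FPKM. Among the members themselves, Adm and Vegfa had r = -0.91, Angptl4 and Vegfa r = -0.94 and Vegfa and Vegfb r = 0.87.

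The promoters of Adm and Vegfa, both known as hypoxia targets, are shown as a description of sequence. The windows run from 250 bases before to 50 bases after the RefSeq start on GRCm38.p6, 5′ to 3′ on the strand of the gene, and capitals mark the core that hypoxia-inducible factors bind, ACGTG or GCGTG, on either strand (read here as CACGT or CACGC where it lies on the other). Adm is on the plus strand at chr7:110627407-110627706, and Vegfa on the minus strand at chr17:46032328-46032627.
Adm: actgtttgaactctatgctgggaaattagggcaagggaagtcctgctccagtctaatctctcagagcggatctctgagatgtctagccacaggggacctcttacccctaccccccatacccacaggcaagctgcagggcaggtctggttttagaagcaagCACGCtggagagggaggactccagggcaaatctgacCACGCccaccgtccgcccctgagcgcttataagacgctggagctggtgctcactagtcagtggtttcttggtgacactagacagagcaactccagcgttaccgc
Vegfa: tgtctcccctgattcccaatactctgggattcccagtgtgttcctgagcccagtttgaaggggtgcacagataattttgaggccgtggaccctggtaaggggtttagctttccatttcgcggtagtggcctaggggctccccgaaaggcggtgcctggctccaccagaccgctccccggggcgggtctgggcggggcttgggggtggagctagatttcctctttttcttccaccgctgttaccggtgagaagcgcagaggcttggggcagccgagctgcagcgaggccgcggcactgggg

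The Adm window held 2 matches and this Vegfa window none. Of 32851 promoter windows 43.8% held at least 1 match, and 4 of the 7 windows matched to 6 members did (Adm, Edn1, Vegfb and a second start of Vegfa). A match is a description of the letters in the window. Sequence outside the windows was not read, and a part of the matches in the level or direction of any member was not tested. In the annotation, Adm, Angpt1, Angpt2 and Edn1 each overlap a gene on the opposite strand (Gm28863, Gm17473, Mcph1 and Gm47118). The library kit keeps strand, but the sources do not say whether counting used it, so reads of each such pair may not be fully told apart.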

How the data were processed

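RNA sequencing libraries of C57BL/6 ventricular cardiomyocytes, 4 in control M199 medium and 4 in CCR2+ cardiac macrophage–conditioned medium, were grouped by their sample titles. For the deposited FPKM the authors used cutadapt for trimming, Hisat2 for alignment to GRCm38 and StringTie with Ballgown for abundance, and the sources used here give neither versions nor an annotation release. FPKM carry no read totals, so depth is unknown and precision comes from the spread between libraries alone. Each of the 11367 genes listed reaches a mean of 0.5 FPKM in 1 group or both, and no further filter was applied. One emptied line per table was skipped.

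Linear models of log2(FPKM + 1) on medium were fitted over all genes, and over all 21301 transcripts, with limma 3.58.1 (trend) in R 4.3.3, with Benjamini-Hochberg adjustment. A gene was called at an adjusted p under 0.05. A fold change on this scale understates the change of low genes. The fit was tested on simulated data. Sequences and positions came from GRCm38 with GENCODE M21, and promoters from RefSeq (GRCm38.p6), which matched 6 of 9 members. Angptl4 has a later identifier version in GENCODE M21 than in the table, and its transcript is given as deposited.

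Genes named by rule are the 9 members and the 5 genes most like Adm, Vegfa and Edn1. For each of 15 lists they also include up to 3 genes with the smallest unadjusted p and the most abundant. The members and lists were chosen with earlier results of these data known. Alternatives were a pseudocount of 0.1, a filter at 2 FPKM, equal totals over nuclear-encoded genes, quantile normalization, median-of-ratios size factors, array weights, gene values summed from transcript FPKM, a block for the replicate number, leaving out single libraries and, chosen after seeing the data, leaving out control replicates 2 and 4.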

Additional observations from a re-analysis of the deposited data

Results flagged for a closer look

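In groups of 4 libraries, a value was singled out where its gap to the nearest library divided by the group's whole range passed Dixon's critical value. Conditioned-medium replicate 4 met this for 5 members. It had 42.1 FPKM of Adm against at most 24.9 FPKM in the other conditioned-medium libraries, 76.5 FPKM of Angpt2 against at most 33.1 and 38.1 FPKM of Apln against at most 13.5. It had 11.8 FPKM of Vegfa against at least 16.8 and 0.525 FPKM of Angpt1 against at least 2.05. The same library was singled out for its summed mural markers, at 98.1 FPKM, and its summed mesothelial and lymphatic markers, at 104 FPKM. In all, 5 of 18 groups of member values and 2 of 12 groups of marker sums were singled out, all through this library, where chance gives about 1 in 20. Their cause was not tested.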

How the results depend on the processing

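The sign of the log2 fold change of Adm, Angptl4, Vegfa, Vegfb, Vegfc and Edn1 was kept in 16 of 16 alternatives, that of Angpt2 in 15 of 16, Angpt1, which the filter removed, in 14 of 15 and Apln in 9 of 16. Array weights called 2 members higher and 1 lower, and 14 receptor, pathway and regulator genes higher and 3 lower. Over all genes, array weights gave 882 higher and 51 lower, and leaving out control replicates 2 and 4 gave 2 and 1. There was 1 lower gene with a pseudocount of 0.1, with size factors and with summed transcripts, and 2 with quantile normalization. Leaving out 1 library gave 31 to 110 higher and 0 to 2 lower genes, 0 to 15 higher and 0 to 4 lower transcripts, with 31 without control replicate 2 and 110 without control replicate 1. Higher transcripts were 5 with a pseudocount of 0.1, 20 with quantile normalization and 42 with array weights. Lower transcripts were 0 with the filter at 2 FPKM, 2 with quantile normalization or size factors and 7 with array weights. Among other genes named by rule, 10 of the values with an alternative setting changed sign, none of a called gene. Pam ran from -0.47 to 0.022 and Gdf15 from -0.12 to 0.28 with 1 library left out. Gdf15 was -0.021 with size factors, and without control replicates 2 and 4 Gdf15 was -0.10, Thbs1 -0.041 and Epas1 -0.012.

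The replicate numbers were not shown to pair the libraries, since the deviations of same-numbered libraries correlated at 0.05, 0.26, -0.18 and 0.06. With the number as a block, 69 genes in place of 63 were higher and 0 transcripts were higher or lower. In the level order 4 neighbouring pairs passed with a pseudocount of 0.1 and with quantile normalization. With summed transcripts and with any 1 library left out 3 passed, and some neighbours were others, as without conditioned replicate 4, where Apln and Angptl4 were neighbours. Depth is unknown, so no limit from counting error can be given.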
